A study of Mus musculus with 280 samples.

Results

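The p53 target genes Cdkn1a, Mdm2, Aen, Ccng1 and Trp53inp1 were followed through mouse preimplantation development in single embryos. These 5 genes, chosen by name from the 11076 genes of the expression table, were all present. They and the gene lists used below were chosen with earlier results of these data known. Their counts and p-values are therefore not independent of that choice. The study made embryos of the FVB strain by in vitro fertilization to ask whether the diet of the father changes gene expression in his offspring. Oocytes of females on control diet were fertilized with sperm of males fed either a control or a low protein diet, and all were cultured in KSOM medium. Control sires gave 41 embryos at the 2-cell stage (2C), 42 at the 4-cell stage (4C), 2 at the 8-cell stage (8C), 38 morulae (M), 14 blastocysts (B) and 2 late blastocysts (LateB). Low protein sires gave 39, 40, 2, 35, 22 and 3 embryos at these stages, so 280 embryos were measured in all. All groups share the strain, the oocyte diet and the culture, and the embryos come from 20 sires and 20 oocyte donors, so that p-values measure the spread between embryos that are not all from separate parents. The groups are whole embryos, and from the blastocyst on an embryo holds more than 1 cell type, so that fewer cells of a type and less RNA per cell cannot be told apart.

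The transcription factor p53 is held at low activity in undisturbed cells by Mdm2, which marks it for destruction, and is released by DNA damage and other stress. Active p53 binds pairs of a short DNA motif and switches on genes that stop the cell cycle, repair DNA or start cell death. Because Mdm2 is itself a target, the response contains its own brake. In oocytes and early embryos a large store of maternal RNA is replaced by RNA from the embryo's own genome around the 2-cell stage, so that a transcript level in the first stages can be inherited or newly made.

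The members were first placed on the genome, and the p53 motif near their starts is shown because it is what the 5 genes are known to share. Coordinates are of whole genes in GENCODE vM21 on GRCm38 (mm10). Cdkn1a lies at chr17:29090976-29100727 on the plus strand, Mdm2 at chr10:117688875-117710758 on the minus strand, and Aen at chr7:78895854-78911209 on the plus strand. Ccng1 lies at chr11:40748552-40755311 on the minus strand, and Trp53inp1 at chr4:11156431-11174379 on the plus strand. RefSeq promoter windows on GRCm38.p6, each 250 bases before to 50 bases after a start, were matched for 4 of the 5, all but Trp53inp1. The motif searched was the p53 decamer, 3 purines, C, 2 bases that are A or T, G and 3 pyrimidines, which reads the same way on both strands. It was present in all 4 genes, and in 8.36% of the 32851 windows and 9.55% of the 27025 genes in the table of promoters. The stretches below run 5′ to 3′ on the strand of the gene, with the decamer in capitals.
Cdkn1a, chr17:29090876-29090967, plus strand: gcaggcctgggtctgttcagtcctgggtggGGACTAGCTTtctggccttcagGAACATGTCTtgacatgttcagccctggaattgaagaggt
Mdm2, chr10:117710905-117710974, minus strand: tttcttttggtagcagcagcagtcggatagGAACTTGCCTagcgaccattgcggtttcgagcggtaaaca
Ccng1, chr11:40755432-40755501, minus strand: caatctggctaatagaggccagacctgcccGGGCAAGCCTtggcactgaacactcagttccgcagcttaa
Aen, chr7:78895927-78895956, plus strand: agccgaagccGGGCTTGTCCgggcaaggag

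In Cdkn1a 2 decamers stood 73 and 51 bases before the upstream start, close enough to count as a pair (2 decamers with at most 13 bases between them), and the window of its second start held none. Such a pair was found in 24 of the 32851 windows (0.0731%), and in none of the windows of the other 3 members. The decamer of Mdm2 lay 186 bases and that of Ccng1 185 bases before the start. That of Aen lay 10 bases after its upstream start and 121 bases before its second start. A decamer was also found in 4 of 11 other arrest targets, 3 of 10 other death targets, 3 of 11 targets in metabolism and feedback, 0 of 5 repair targets, 1 of 22 regulators and 0 of 6 relatives of the members. These are matches of letters, and no binding was measured here.

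Expression is given in TPM, a measure of transcript share that is corrected for length and relative to all other transcripts of the embryo. The table gives no counts, so the depth behind each value is unknown. Between 3626 and 10204 genes reached 1 TPM in an embryo, and 1 control morula, with 3626, fell under 5000. That morula, on plate 4, had the highest Cdkn1a of all embryos (577 TPM) and 0 TPM of the other 4 members and of Trp53. Plate is the number that opens each sample title, taken here as a technical batch. The stage labels were checked with marker genes. Obox5, a homeobox gene of the 2-cell embryo, averaged 7695 TPM at 2C and 29.6 TPM at 4C. Zscan4d, also chosen for 2C, averaged 739 TPM at 2C and 7.57 TPM at 4C. Klf17, chosen for 4C, was higher at 2C (1038 TPM) than at 4C (524 TPM), so it did not mark 4C against 2C. Of 7 markers of cumulus cells, the cells that surround the oocyte, none was in the table. In blastocysts 5 embryos stood apart. They were the low protein blastocysts of plate 6, and no control blastocyst was on that plate. Their Krt8, a keratin of the outer cell layer, was 195 to 694 TPM against 1349 to 10120 TPM in the other 31 blastocysts. Gata3, a trophectoderm factor, was 25.1 to 75.98 TPM against 466 to 1351 TPM, and Cdx2, another one, 5.34 to 25.7 TPM against 53.9 to 192 TPM. These values lie within the range of the morulae and go against the blastocyst label, so the B medians, the M to B and diet fits, the relations and the spreads at B are also given without these 5 embryos. The 5 morulae of plate 2 had Cdx2 of 5.99 to 18.1 TPM against a median of 99.4 TPM in the 28 morulae of plate 1.

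Each of the 5 genes had a course of its own. Cdkn1a encodes p21, an inhibitor of cyclin-dependent kinases that stops the cell cycle. It was found at 1 TPM or more in all 280 embryos. In control embryos it ran from 1.51 through a median of 36.3 to 352 TPM at 2C, from 31.4 through 85.4 to 326 TPM at 4C, from 14.52 through 90.03 to 577 TPM at M and from 11.7 through 36.7 to 185 TPM at B. In low protein embryos the lowest, median and highest values were 8.40, 38.5 and 176 TPM at 2C, 14.3, 61.8 and 439 TPM at 4C, 32.8, 94.1 and 459 TPM at M, and 5.91, 43.8 and 188 TPM at B. Without the plate 6 blastocysts the low protein values at B were 5.91, 25.8 and 97.4 TPM (n = 17), with the median below that of control blastocysts. The medians were thus low at 2C and B and higher at 4C and M, and the ranges of all 4 stages overlapped widely. The 4 8C embryos had 27.5 and 102 TPM (control) and 56.5 and 89.8 TPM (low protein). The 5 late blastocysts had 233 and 95.9 TPM (control) and 45.98, 151 and 163 TPM (low protein). Of these 5 only the embryo at 45.98 TPM lay below the 4C medians of all plates. All late blastocysts were on plate 7. The 4C embryos of that plate had 52.6 and 259.9 TPM (control) and 120.5 and 247.2 TPM (low protein). Its morulae had 27.6 and 59.4 TPM (control) and 74.7 and 97.15 TPM (low protein). On their own plate the late blastocysts thus lay within the range of the 4C embryos, apart from the one at 45.98 TPM.

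Ccng1 encodes cyclin G1, an atypical cyclin known to work with protein phosphatase 2A on Mdm2. It was the member with the lowest median at 2C and the highest at B. The median over both diets was 7.49 TPM at 2C (range 0 to 40.6 TPM, n = 80) and 3.82 TPM at 4C (0 to 41.1 TPM, n = 82). It then stood at 61.5 TPM at M (0 to 193 TPM, n = 73) and 90.9 TPM at B (5.90 to 298 TPM, n = 36). The 8C embryos had 3.94 and 21.1 TPM (control) and 19.1 and 18.5 TPM (low protein), between the 4C and M medians for 3 of the 4 and near the 4C median for the other. In late blastocysts the values were 59.8 and 59.8 TPM (control) and 82.7, 72.4 and 103 TPM (low protein). The 5 plate 6 blastocysts held 5.90, 6.41, 13.7, 28.5 and 35 TPM, below every other blastocyst, of which the lowest had 39.4 TPM.

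Mdm2 encodes the ubiquitin ligase that binds p53 and marks it for degradation. Its level was highest at 2C. In control embryos the mean was 102 ± 44.7 TPM at 2C (SD, n = 41), 65.1 ± 34.5 TPM at 4C (n = 42), 34.6 ± 21.1 TPM at M (n = 38) and 41.9 ± 19.2 TPM at B (n = 14). In low protein embryos it was 106 ± 49.8 TPM (n = 39), 65.8 ± 28.96 TPM (n = 40), 36.3 ± 21.5 TPM (n = 35) and 32.7 ± 13.3 TPM (n = 22). The 8C embryos (32.3 and 34.2 TPM in control, 34.4 and 48.7 TPM in low protein embryos) lay within the range of the morulae of all plates. They were all on plate 3, where the morulae averaged more, 60.5 TPM in control and 62.5 TPM in low protein embryos. The fitted log2 change from 8C to M on that plate was 0.45 ± 0.45 (SE, limma adjusted p = 0.532). Late blastocysts had 11.6 and 21.7 TPM (control) and 36.5, 20.96 and 35.98 TPM (low protein).

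Aen encodes a nuclease of apoptosis. It was low at 2C, with a median of 11.3 TPM over both diets (range 0 to 63.8 TPM), and reached 1 TPM in 74 of 80 embryos. The median was 80.7 TPM at 4C (11.1 to 290 TPM), 72.6 TPM at M (0 to 176 TPM) and 71.3 TPM at B (21.3 to 131 TPM). The B median rests largely on plate 2 and the M median on plates 1 and 6, and the step between them is given below with plate as covariate. At 8C the control embryos had 67.4 and 121 TPM and the low protein embryos 122 and 114 TPM. All 5 late blastocysts lay below the B median, at 17.2 and 29.4 TPM (control) and 38.1, 48.1 and 47.6 TPM (low protein). They were on plate 7, which held no B embryo. The 4C embryos (26.2 to 69.8 TPM) and morulae (32.4 to 65.8 TPM) of that plate also lay below the B median. The late blastocysts therefore cannot be set apart from the level of their plate.

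Trp53inp1 encodes a nuclear protein known to promote p53-dependent cell death and autophagy. Its median was lower at 4C than at 2C and lower at B than at M. The median over both diets was 44.3 TPM at 2C (range 8.36 to 171 TPM), 13.3 TPM at 4C (0.46 to 85.3 TPM), 19.5 TPM at M (0 to 111 TPM) and 5.295 TPM at B (0 to 67.4 TPM). The highest blastocyst was on plate 6, and the highest of the others had 20.9 TPM. At 8C the values were 12.9 and 25.4 TPM (control) and 7.58 and 8.83 TPM (low protein). In late blastocysts they were 5.82 and 10.5 TPM (control) and 11.96, 12.1 and 25.5 TPM (low protein).

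**Figure D1:**
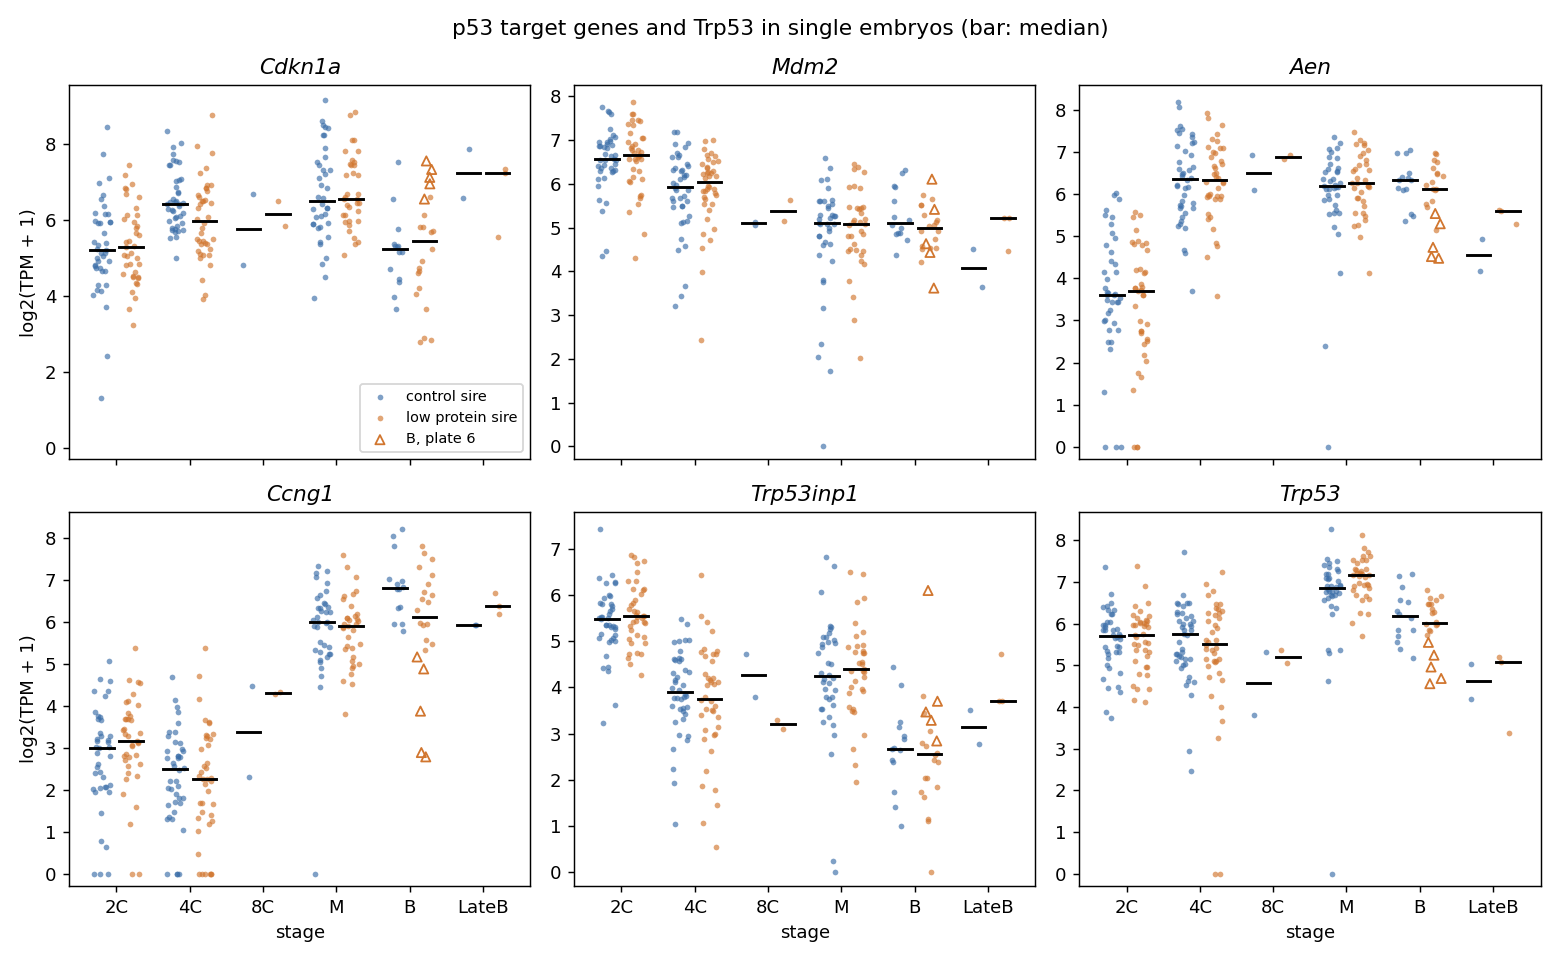
Level of each member and of Trp53 on the y axis as log2(TPM + 1), by stage on the x axis, with 1 point per embryo, control sires in blue, low protein sires in orange and a bar at each median. Ccng1 sits near its floor at 2C and 4C and high from M on, Mdm2 steps down from 2C to M, and the open triangles mark the 5 low protein blastocysts of plate 6, the 5 lowest in Ccng1 among blastocysts.

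Because TPM is per length, the members can be ranked within a stage. At 2C the order of the medians over both diets was Mdm2 (98.1 TPM), Trp53inp1 (44.3 TPM), Cdkn1a (36.6 TPM), Aen (11.3 TPM) and Ccng1 (7.49 TPM). At B it was Ccng1 (90.9 TPM), Aen (71.3 TPM), Cdkn1a (37.5 TPM), Mdm2 (32 TPM) and Trp53inp1 (5.295 TPM). Without the plate 6 blastocysts (n = 31) the order was the same, with medians of 103.7, 79.35, 35.1, 32.2 and 4.79 TPM. The gene that was highest at 2C was thus next to last at B, and the one that was lowest became the highest.

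The steps between stages were tested in control and in low protein embryos separately, with plate as covariate. A gene was called when its adjusted p was under 0.05 and its log2 fold change 1 or more in size. All fold changes are on the log2(TPM + 1) scale, which understates the change of low genes. From 2C to 4C in control embryos 2 of the 5 members rose, where 34.4% of 11054 genes rose, and 1 fell, where 36.9% fell. Aen rose by 2.76 ± 0.24 (SE, adjusted p = 7.34e-22) and Cdkn1a by 1.54 ± 0.22 (adjusted p = 1.21e-10), while Trp53inp1 changed by -1.90 ± 0.20 (adjusted p = 9.02e-17). Aen was higher in 6 of 6 plates and Trp53inp1 lower in 6 of 6. Mdm2, at -0.99 ± 0.17 (adjusted p = 1.01e-07), lay just under the fold threshold and was called in 8 of 17 alternative settings.

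In low protein embryos 1 member rose from 2C to 4C (34.5% of 11062 genes) and 1 fell (37.6%). Aen rose by 3.15 ± 0.20 (adjusted p = 5.73e-31) and Trp53inp1 changed by -2.11 ± 0.21 (adjusted p = 6.86e-18). Cdkn1a was at 0.68 ± 0.24 (adjusted p = 0.00601), under the fold threshold. The step of Cdkn1a was called in 1 diet and not in the other, but the test of diet by stage gave an adjusted p of 0.487 (unadjusted p = 0.0353), so the steps were not shown to differ.

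From 4C to M the change of Ccng1 was the largest of the members. It rose by 3.41 ± 0.28 (adjusted p = 1.90e-22) in control and 3.68 ± 0.27 (adjusted p = 1.69e-25) in low protein embryos, in 6 of 6 and 5 of 5 plates. It was the only member that rose, where 9.93% of genes rose in control and 11.5% in low protein embryos. Mdm2 fell in control embryos, at -1.08 ± 0.18 (adjusted p = 1.20e-07), where 26.4% of genes fell. In low protein embryos it was at -0.99 ± 0.18 (adjusted p = 6.35e-07) and so missed the fold threshold, where 23.7% of genes fell and no member did. The call in control embryos ended without the 1 morula under 5000 genes (-0.99), without plate 4 (-0.98), with array weights (-0.88) and with quantile normalization (-0.57), and the call in low protein embryos was made without plate 3 (-1.11) or plate 7 (-1.07). Cdkn1a was at -0.09 in control and 0.65 in low protein embryos, Aen at -0.60 and -0.23, and Trp53inp1 at 0.47 and 0.57, and none of these reached the fold threshold.

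From M to B Cdkn1a and Trp53inp1 fell in both diets, 2 of 5 members where 16.9% of genes fell in control and 19.1% in low protein embryos. Cdkn1a changed by -1.48 ± 0.36 (adjusted p = 0.000526) in control and -1.49 ± 0.33 (adjusted p = 7.73e-05) in low protein embryos, and Trp53inp1 by -1.49 ± 0.32 (adjusted p = 0.000107) and -1.99 ± 0.29 (adjusted p = 3.41e-09). No member rose, where 7.42% and 5.00% of genes did. Without the 5 plate 6 blastocysts the low protein changes were -2.32 for Cdkn1a (adjusted p = 1.01e-07) and -2.20 for Trp53inp1 (adjusted p = 2.36e-08). Among the low protein embryos of plate 6 itself Cdkn1a was 0.40 log2 units higher in blastocysts than in morulae, at 93.5, 124, 139, 161 and 188 TPM. Mean log2 levels were 7.11 in these blastocysts, and 6.71 in low protein and 7.50 in control morulae of that plate. The control morulae there thus lay above the blastocysts on average. The low protein call of Cdkn1a was lost without plate 3 (-0.88, adjusted p = 0.0320), and without plate 2 Aen (-1.002, adjusted p = 0.0466) and Ccng1 (-1.19, adjusted p = 0.0448) were called as well.

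The other 3 members were called in neither diet from M to B. Ccng1 was at 0.62 in control (adjusted p = 0.283) and -0.26 in low protein embryos (adjusted p = 0.575). The control value joins plates of opposite sign, with 1.67 in plate 2 and -0.59 in plate 3. On plate 2 it rests on 3 control morulae, and the morulae of that plate were low in Cdx2. The low protein value of Ccng1 turned with the plates kept, from -1.19 without plate 2 to 0.31 without the plate 6 blastocysts (adjusted p = 0.579). Aen was at -0.67 in control (adjusted p = 0.182) and -0.90 in low protein embryos (adjusted p = 0.00547, under the fold threshold), lower at B in 2 of 2 and 3 of 3 plates. Without the plate 6 blastocysts the low protein change of Aen was -0.998 (adjusted p = 0.0125), and without the plate covariate Aen was at 0.31 in control and -0.26 in low protein embryos. Mdm2 was at -0.03 in control and -0.42 in low protein embryos, the latter -0.53 without the plate 6 blastocysts (adjusted p = 0.113). The median of all genes was itself shifted at these steps, by -0.33 and -0.24 in control and -0.25 and -0.33 in low protein embryos from 4C to M and M to B. The changes of Cdkn1a and Trp53inp1 from M to B were larger than that shift, and that of Mdm2 was near it.

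**Figure D2:**
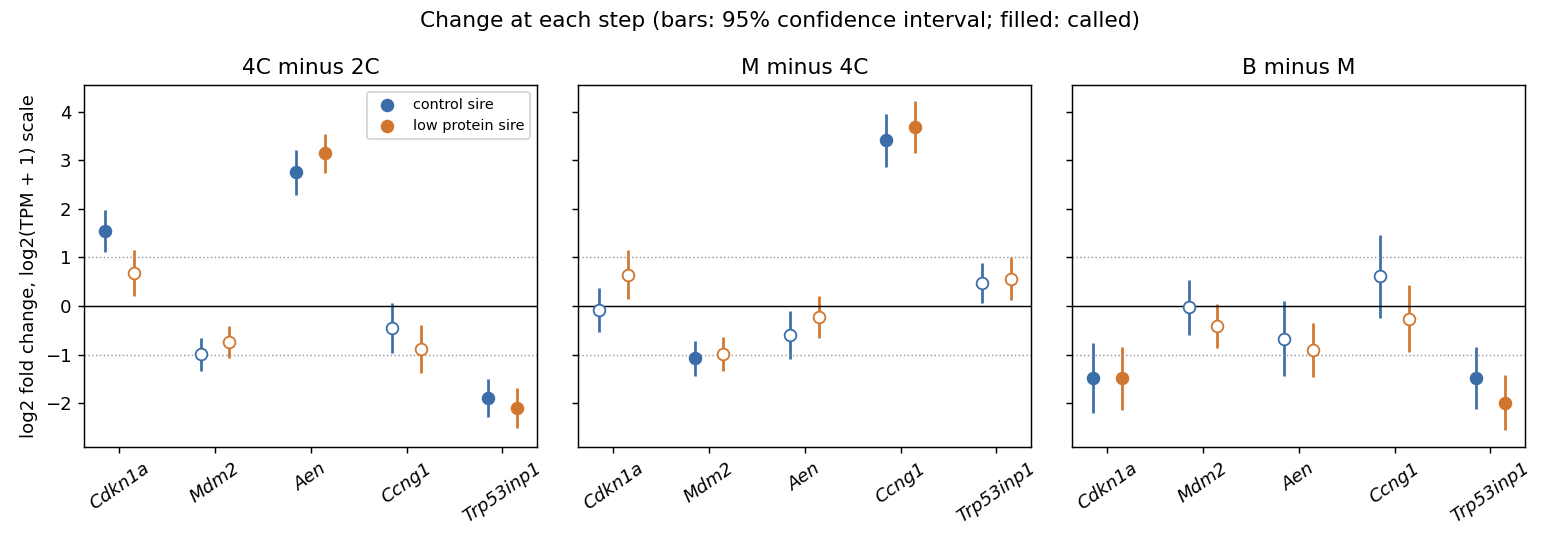
Log2 fold change of each member (x axis) at 3 steps, on the log2(TPM + 1) scale (y axis), with 95% confidence intervals. Control sires are blue and low protein sires orange, filled points passed both thresholds and dotted lines mark a log2 fold change of 1. The intervals of the 2 diets overlap in each of the 15 pairs.

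All 8C embryos were on plate 3, so they were compared with the 4C embryos and morulae of that plate. From 4C to 8C no member was called, where 0.952% of 11034 genes rose and 3.87% fell. At an unadjusted p under 0.05 in limma there was 1 member (Ccng1, 1.21 ± 0.48, adjusted p = 0.148). Of all 11034 genes 2060 had such a p, so this 1 member does not stand out from the background. Without the control 8C embryo at 3.94 TPM Ccng1 was called (1.75, adjusted p = 0.0482). From 8C to M Ccng1 rose by 2.79 ± 0.48 (adjusted p = 6.37e-05), the only call among the members, where 9.13% of genes rose and 11.2% fell.

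The genes above the members in the pathway were followed through the same steps. Trp53, which encodes p53, had a mean of 53.7 ± 28.04 TPM at 2C (n = 80), 53.8 ± 33.8 TPM at 4C (n = 82), 128 ± 51.9 TPM at M (n = 73) and 71.2 ± 29.5 TPM at B (n = 36). It rose from 4C to M by 1.11 ± 0.23 (adjusted p = 9.16e-06) in control and 1.67 ± 0.22 (adjusted p = 1.64e-11) in low protein embryos. From M to B it was at -0.47 in control embryos (adjusted p = 0.321) and fell in low protein embryos (-1.06 ± 0.28, adjusted p = 0.000950), a call that was lost without the plate 6 blastocysts (-0.72, adjusted p = 0.0761). Mdm4, the relative and partner of Mdm2 that silences p53 without destroying it, had a mean of 237 ± 138 TPM at 2C, 32.8 ± 23.7 TPM at 4C and 11.2 ± 7.68 TPM at M. It fell by 3.26 on the log2 scale from 2C to 4C in control embryos (adjusted p = 5.90e-43) and changed by -1.18 from 4C to M (adjusted p = 3.08e-10). Ppm1d, a phosphatase that switches the p53 response off and is itself a p53 target, went from 23.9 ± 17.6 to 5.04 ± 5.77 TPM between 2C and 4C (log2 -2.17 in control and -2.31 in low protein embryos).

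Of 25 genes of p53 and its regulators, 6 rose and 6 fell from 2C to 4C in control embryos, 3 and 12 from 4C to M, and 0 and 6 from M to B. In low protein embryos the counts were 5 and 6, 3 and 10, and 0 and 6 (7 without the plate 6 blastocysts). These and the counts of the lists that follow are to be read against all genes tested. They describe lists chosen with earlier results of these data known. In control embryos 34.4% of all genes rose and 36.9% fell from 2C to 4C, 9.93% and 26.4% from 4C to M, and 7.42% and 16.9% from M to B. In low protein embryos the shares were 34.5% and 37.6%, 11.5% and 23.7%, and 5.00% and 19.1%. The median log2 change of all genes at the 3 steps was -0.01, -0.33 and -0.24 in control and -0.06, -0.25 and -0.33 in low protein embryos. Chek2, a kinase that signals DNA damage to p53, rose from 2C to 4C and fell at both later steps in both diets, with means of 23.7 ± 25.3 TPM at 2C, 378 ± 113 TPM at 4C, 49.4 ± 35.5 TPM at M and 14.8 ± 5.84 TPM at B. The ribosomal proteins Rpl5 and Rpl11, which can bind Mdm2, rose by 5.02 and 3.85 from 2C to 4C in control embryos, and both have many pseudogenes, so their values are uncertain. Usp7, which removes ubiquitin from p53 and Mdm2, changed by -1.68 from 4C to M and by -1.40 from M to B in control embryos. Trp53bp1, a DNA damage protein, went from 31.95 ± 12.45 TPM at 4C to 3.87 ± 1.85 TPM at M. The median log2 change of the list was -0.08, -0.94 and -0.45 at the 3 steps in control embryos and -0.18, -0.59 and -0.45 in low protein embryos.

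The other known targets of p53 were sorted by role. Of 11 targets that act on the cell cycle, 1 rose and 6 fell from 2C to 4C in control embryos, 5 rose and 1 fell from 4C to M, and 0 rose and 4 fell from M to B. In low protein embryos the counts were 1 and 6, 6 and 0, and 0 and 3 (5 without the plate 6 blastocysts). From 4C to M 9.93% of all genes rose in control and 11.5% in low protein embryos. The list's median log2 change was -1.04, 0.62 and -0.56 at the 3 steps in control embryos and -1.17, 1.34 and -0.43 in low protein embryos, against -0.01, -0.33 and -0.24, and -0.06, -0.25 and -0.33, for all genes. Psrc1, a microtubule protein, went from 88.3 ± 42.03 TPM at 2C to 5.44 ± 5.96 TPM at 4C and back to 71.5 ± 40.5 TPM at M. Btg2, an antiproliferative gene, took the same turn at lower levels (16.02, 1.38 and 11.8 TPM). Sfn, a 14-3-3 protein known for arrest at G2 and as an epithelial gene, rose in control embryos at both steps, by 5.17 ± 0.29 and 1.10 ± 0.31. Plk2 rose by 2.03 ± 0.36 from 4C to M and changed by -1.92 ± 0.56 from M to B.

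Of 13 targets in cell death, 8 rose and 2 fell from 2C to 4C in control embryos, 4 and 2 from 4C to M, and 0 and 4 from M to B. The counts in low protein embryos were 8 and 2, 5 and 3, and 0 and 5, with the last unchanged without plate 6 blastocysts. At the first step 34.4% of all genes rose in control and 34.5% in low protein embryos. The list's median log2 change there was 1.85 in control and 1.64 in low protein embryos, against -0.01 and -0.06 for all genes, and 0.02 and -0.19 from 4C to M and -0.18 and -0.43 from M to B. Bax, which opens the mitochondrial membrane, went from 27.2 ± 14.9 TPM at 2C to 198 ± 70.1 TPM at 4C and stayed at 196 ± 72.1 TPM at M and 179 ± 44.99 TPM at B. Ei24 reached 772 ± 293 TPM at 4C and was at 15.8 ± 6.999 TPM at B. Another set averaged under 2 TPM at 4C and 18.4 to 142 TPM at M. Perp, a desmosome protein, rose by 5.44 ± 0.26 and Phlda3, an inhibitor of Akt, by 3.27 ± 0.27 in control embryos. Pmaip1, also called Noxa, rose by 2.63 ± 0.32, and Eda2r, a receptor of the tumor necrosis factor family, by 2.99 ± 0.27 before it changed by -2.47 ± 0.43 from M to B.

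Of 8 repair targets none rose and 4 fell at each of the first 2 steps in control embryos, and 1 rose and 0 fell from M to B. In low protein embryos the counts were 0 and 4, 0 and 2, and 0 and 1. From 2C to 4C 36.9% of all genes fell in control and 37.6% in low protein embryos. The list's median log2 change at that step was -1.10 and -1.29, against -0.01 and -0.06 for all genes. Rrm2b, a subunit of the p53-induced ribonucleotide reductase, went from 91.5 ± 47.6 TPM at 2C to 9.13 ± 7.08 TPM at 4C and 1.23 ± 1.37 TPM at M. Of 16 targets in metabolism and feedback, 5 rose and 8 fell, 3 and 4, and 3 and 3 at the 3 steps in control embryos. In low protein embryos they were 5 and 8, 3 and 3, and 2 and 5. At the first step 34.4% and 34.5% of all genes rose, so the 5 that rose in each diet lie near the background. The list's median log2 change was -0.62, -0.67 and -0.47 in control and -0.56, -0.55 and -0.54 in low protein embryos. Ndrg1 rose from M to B by 4.46 in control and 4.07 in low protein embryos, from 7.32 ± 8.40 TPM at M to 288 ± 240 TPM at B.

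Of the 7 closest relatives of the members 6 fell and 1 rose from 2C to 4C in both diets, where 36.9% of all genes fell in control and 37.6% in low protein embryos. Their median log2 change was -2.93 in control and -2.94 in low protein embryos, against -0.01 and -0.06 for all genes. From 4C to M 4 fell in control and 3 in low protein embryos (26.4% and 23.7% of all genes), and from M to B 1 fell in control, and 1 rose and 1 fell in low protein embryos (0 and 1 without the plate 6 blastocysts). Ccng2, the relative of Ccng1, had 77.5 ± 29.2 TPM at 2C and 0.856 ± 1.73 TPM at 4C. Trp53inp2 went from 210 ± 72.5 to 11.3 ± 8.39 TPM. The other inhibitors of the p21 family were at 5.71 ± 4.42 TPM (Cdkn1b) and 11.3 ± 14.1 TPM (Cdkn1c) at 2C and at 0.130 and 2.47 TPM at 4C. Cdkn1a was therefore the only 1 of the 3 above 3 TPM on average at 4C and M. Isg20l2, a relative of Aen, rose with it to 77.6 ± 34.03 TPM at 4C, but then went to 23.5 ± 14.4 TPM at M, where Aen did not.

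Of 10 partners of p21, the cyclins and kinases it inhibits and Pcna, 4 rose and 2 fell, 1 rose and 4 fell, and 0 rose and 3 fell at the 3 steps in control embryos. The counts were 5 and 2, 1 and 3, and 0 and 4 (0 and 3 without the plate 6 blastocysts) in low protein embryos. At the first step 34.4% of all genes rose in control and 34.5% in low protein embryos, and the list's median log2 change was 0.32 and 0.53, against -0.01 and -0.06. At the later steps the list was at -0.75 and -0.59 in control and -0.65 and -0.62 in low protein embryos. Ccne2, cyclin E2, went from 150 ± 91.9 TPM at 2C to 5.07 ± 4.97 TPM at 4C. Ccne1, cyclin E1, was at 519 ± 179 TPM at 4C, 271 ± 138 TPM at M and 76.9 ± 44 TPM at B. From M to B it changed by -2.44 ± 0.28 in control embryos, at the step at which Cdkn1a fell.

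The diet of the sire was compared at each stage with plate as covariate, and no member passed at an adjusted p under 0.05 at 2C, 4C, M or B. In limma 0.00% of 10314 genes at 2C, 0.00% of 9820 at 4C, 0.00% of 9552 at M and 0.00% of 9378 at B passed, and 717, 511, 996 and 322 genes had an unadjusted p under 0.05. Among the members that was true of 1, Cdkn1a at 4C. It was 107 ± 66.7 TPM in control (n = 42) and 84.8 ± 77.5 TPM in low protein embryos (n = 40), a log2 difference of -0.58 (95% confidence interval -0.93 to -0.23, unadjusted p = 0.00162, adjusted p = 0.842). It was lower with low protein sires in 5 of 7 plates, with differences between -1.11 and 0.55. At the other stages Cdkn1a differed by 0.12 (-0.34 to 0.57) at 2C, 0.12 (-0.29 to 0.53) at M and -0.52 (-1.16 to 0.13) at B. The log2 difference at B was the same without the plate 6 blastocysts (-0.52, interval -1.20 to 0.17, adjusted p = 0.998), since no control blastocyst shares that plate and plate was a covariate. Without them the B means were 46.6 ± 44.7 TPM in control (n = 14) and 34.3 ± 25.6 TPM in low protein blastocysts (n = 17).

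With low protein sires Ccng1 at 2C was the higher one in 6 of 6 plates (8.26 ± 7.33 TPM, n = 41, against 10.1 ± 7.81 TPM, n = 39), but its log2 difference of 0.35 had an interval of -0.15 to 0.85 (adjusted p = 0.771). Its intervals were -0.76 to 0.31 at 4C, -0.50 to 0.40 at M and -0.83 to 0.15 at B. For Mdm2 the intervals were -0.30 to 0.21 at 2C, -0.21 to 0.42 at 4C, -0.26 to 0.60 at M and -0.72 to 0.08 at B. For Aen they were -0.92 to 0.15, -0.33 to 0.26, -0.19 to 0.74 and -0.29 to 0.27, and for Trp53inp1 -0.07 to 0.47, -0.55 to 0.24, -0.31 to 0.65 and -1.17 to 0.11. A log2 difference of 1 is thus outside the interval in each test of Mdm2, Aen, Ccng1 and Trp53inp1 except that of Trp53inp1 at B. In the test of diet by stage 14 of 11054 genes passed (0.127%), none of them a member. Adjusted p-values of the members there ran from 0.487 (Cdkn1a) to 0.927 (Mdm2), and 1023 genes had an unadjusted p under 0.05.

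Embryos of 19 of the 20 oocyte donors were found in both diets, per the header of the table, so diet was also fitted with the oocyte donor as a block beside plate. No member passed at an adjusted p under 0.05 at any stage, and 0 genes passed at 2C, 4C and B and 2 at M, neither of them a member. Cdkn1a at 4C was at -0.58 in this fit (interval -0.93 to -0.24, unadjusted p = 0.00113, adjusted p = 0.614), and its donor means were lower with low protein sires in 11 of the 16 donors with both diets. At B, with 4 such donors, Cdkn1a was at -0.66 (unadjusted p = 0.0222), Ccng1 at -0.42 (0.0452), Mdm2 at -0.37 (0.0380) and Trp53inp1 at -0.63 (0.0373), each with an adjusted p of 0.997. These 4 genes were lower with low protein sires in 4 of 4 donors, and Aen in 2 of 4. How many of all genes reach either mark with the donor block is not given here. The 4 genes therefore cannot be set against a background, and no diet difference at B is drawn from them. The blastocysts came from 2 control and 3 low protein sires, so these p-values do not measure the spread between sires. The 4 genes also varied together in blastocysts, with r from 0.581 to 0.785, so their shared direction does not count as 4 separate results.

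**Figure D3:**
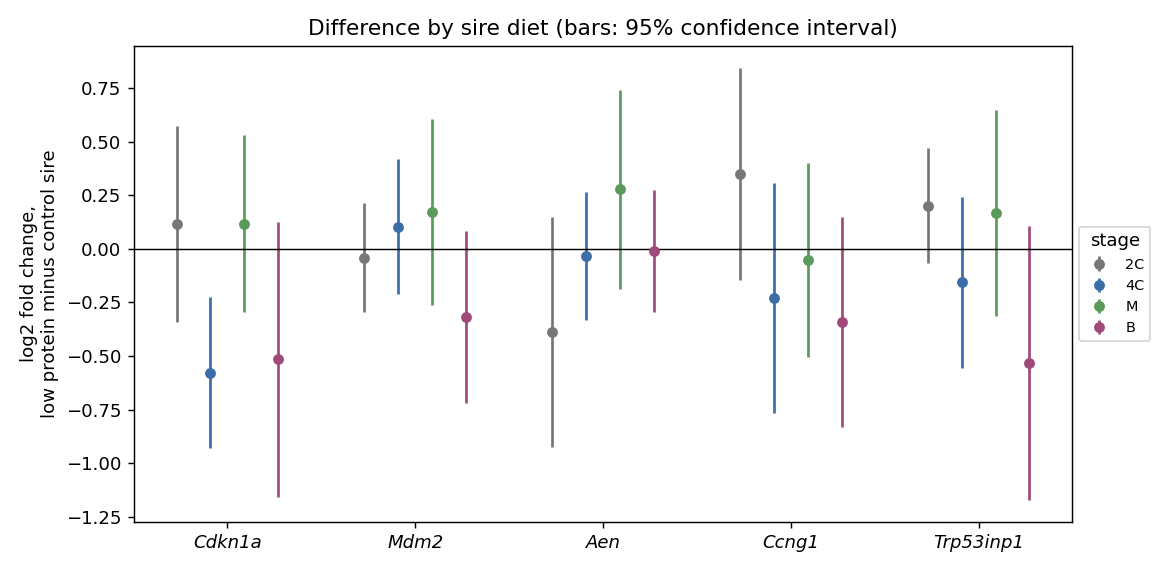
Log2 difference between low protein and control sires (y axis) for each member (x axis) at 4 stages, with 95% confidence intervals, from the fit with plate and no oocyte donor block. Only the interval of Cdkn1a at 4C, -0.93 to -0.23, leaves out 0, and its adjusted p is 0.842.

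The embryos of a stage differed from one another, and it was asked whether the members varied together. The mean of each plate and diet was subtracted from log2(TPM + 1), Pearson's r was computed over embryos for the 10 pairs of members at 4 stages, and each r was tested by permutation within plate and diet with adjustment over 60 relations. In blastocysts all 10 pairs were positively related (n = 36), with r from 0.58 (Cdkn1a and Mdm2) to 0.81 (Mdm2 and Aen) and adjusted p from 6.67e-05 to 0.00103. Spearman's rho ran from 0.544 to 0.830, and r without the 2 embryos farthest out on the first gene of a pair from 0.50 to 0.847. The median r of the 10 pairs was 0.691, whereas the median r of the members with the other 9373 genes was 0.080.

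Single blastocysts show this. The control blastocyst of plate 2 with the most Cdkn1a (185 TPM) had 265 TPM of Ccng1, 131 TPM of Aen, 74.8 TPM of Mdm2 and 20.9 TPM of Trp53inp1. The plate 2 blastocyst with the least Cdkn1a (5.91 TPM, low protein) had 46.5 TPM of Ccng1, 50.7 TPM of Aen, 22.1 TPM of Mdm2 and 1.24 TPM of Trp53inp1. The former was at or near the top of its plate in all 5 genes and the latter near the bottom. The former was also the lowest in Krt8 outside plate 6, at 1349 TPM. No relation of a member with Krt8 was called at any stage (20 tested by permutation). For Cdkn1a at B r was -0.455 (adjusted p = 0.0616), and -0.214 without the 2 embryos farthest out in Cdkn1a. Within plate 2 alone (n = 25) r of the 10 pairs lay between 0.690 and 0.895, and in plate 3 (n = 6) between 0.007 and 0.942. By diet the medians were 0.791 in control (n = 14) and 0.665 in low protein blastocysts (n = 22). Without the plate 6 blastocysts (n = 31) all 10 pairs kept an adjusted p under 0.05, and r of the Cdkn1a pairs was 0.721 with Mdm2, 0.797 with Aen, 0.836 with Ccng1 and 0.761 with Trp53inp1. The number of genes detected was related to Cdkn1a (r = 0.420, adjusted p = 0.0353), and the median r given that number was 0.682. Given Krt8 it was 0.654.

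In morulae (n = 73) the 6 pairs without Cdkn1a were related, with r from 0.539 to 0.745 (adjusted p 6.67e-05 to 0.00102), and the 4 pairs with Cdkn1a were not, with r from -0.092 to 0.145. Of these 4, Cdkn1a and Ccng1 had a rho of 0.361 (adjusted p = 0.0128). The number of genes detected was related to Mdm2 (r = 0.50), Aen (0.683) and Trp53inp1 (0.499) in morulae, and given that number the median r of the 6 pairs was 0.538. These embryos differed by plate. In plate 1 (n = 28) the Cdkn1a pairs had r from 0.434 to 0.728, in plate 4 (n = 13), which holds the morula under 5000 genes, from -0.577 to -0.272, in plate 3 (n = 8) from -0.201 to 0.583 and in plate 6 (n = 15) from -0.368 to 0.373. The pooled value near 0 is thus made of plates of opposite sign. The plate 4 morulae with the fewest genes detected (3626, 6600 and 6843) were high in Cdkn1a, at 577, 353 and 459 TPM. Their Mdm2 was 0, 2.31 and 3.05 TPM and their Aen 0, 4.26 and 16.5 TPM. The r values of plate 4 are not given without them, so its negative sign cannot be told apart from low detection. The 6 pairs without Cdkn1a had r from 0.164 to 0.857 in plate 1, 0.426 to 0.945 in plate 3 and 0.746 to 0.865 in plate 4. In plate 6 they ran from -0.354 to 0.802 with a median of 0.052, and 3 of the 6 were positive, so the relation did not hold in that plate. Without the morula under 5000 genes the 6 pairs had r from 0.404 to 0.687, all with an adjusted p under 0.05, and Aen and Ccng1 went from 0.717 to 0.473. Without that morula Cdkn1a and Ccng1 were related in morulae as well (r = 0.419, adjusted p = 0.00231).

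The difference in r between blastocysts and morulae was tested for the 4 Cdkn1a pairs by permutation of the stage label. It was 0.808 for Aen (p = 0.0014, adjusted over the 4 pairs 0.0055), 0.598 for Trp53inp1 (adjusted p = 0.025), 0.511 for Mdm2 (adjusted p = 0.034) and 0.529 for Ccng1 (adjusted p = 0.077). Without the morula under 5000 genes the adjusted p was 0.028 for Aen, 0.062 for Trp53inp1, 0.067 for Mdm2 and 0.17 for Ccng1, so that only the pair with Aen stayed under 0.05. The test was chosen after the pattern had been seen, and plate was not part of it.

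At 2C (n = 80) 4 pairs were related, Mdm2 with Aen (r = 0.436), Ccng1 (0.316) and Trp53inp1 (0.376), and Aen with Ccng1 (0.521). The relation of Mdm2 and Ccng1 was 0.139 without the 2 embryos farthest out in Mdm2, so it rests on them. Here the number of genes detected was itself related to Mdm2 (r = 0.585), Aen (0.611) and Ccng1 (0.463), and given that number the median r of the 6 pairs without Cdkn1a was 0.157 in place of 0.346. At 4C (n = 82) Mdm2 and Aen (r = 0.393) and Ccng1 and Trp53inp1 (0.432) were related, and r of the former was 0.219 without the 2 embryos farthest out. The number of genes detected was related there to Aen (r = 0.390) and Trp53inp1 (0.318). In all, 22 of 40 pairs were called, and Cdkn1a was in none of those outside the blastocyst.

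**Figure D4:**
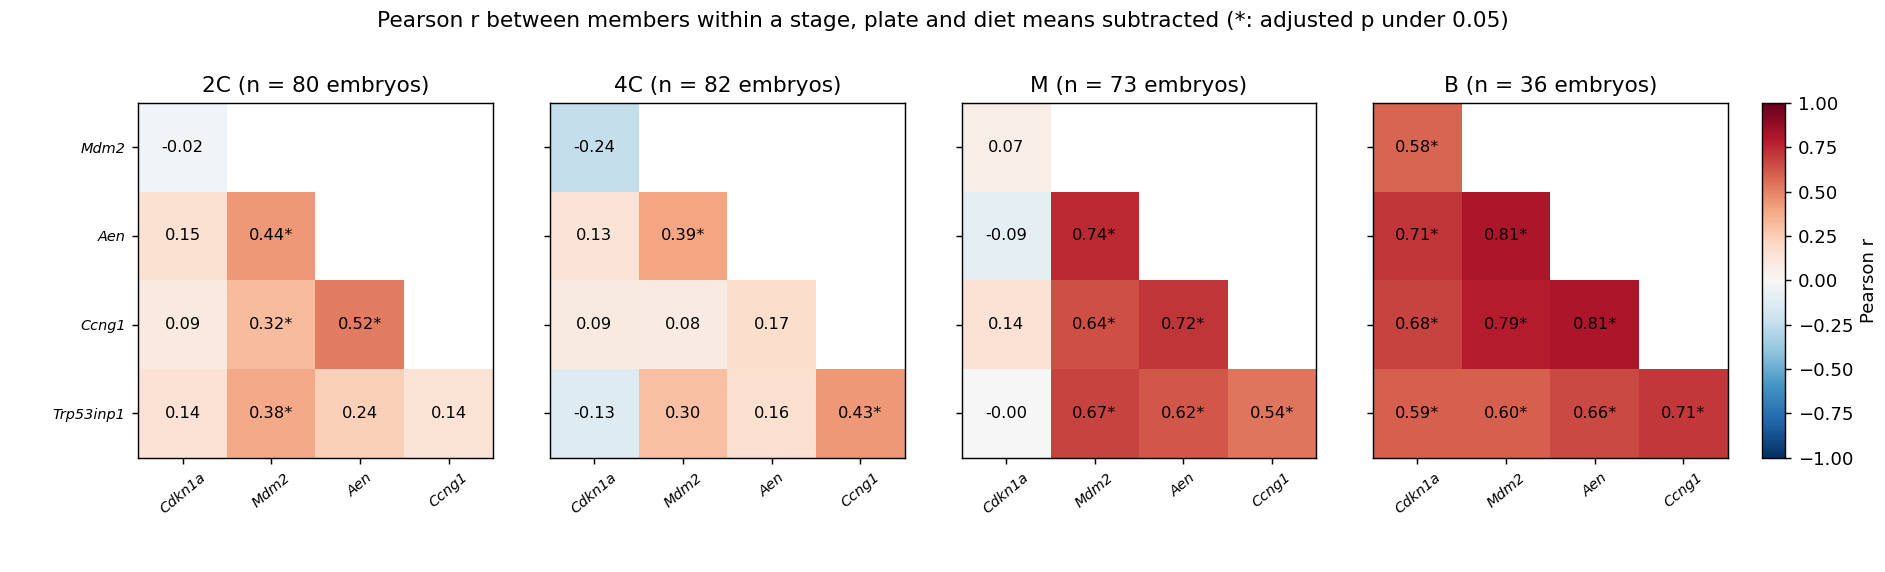
Pearson r for each pair of members (rows and columns) at 4 stages, over embryos with plate and diet means subtracted, with a star for an adjusted p under 0.05. All 10 pairs carry a star at B, 6 at M and none of the Cdkn1a pairs (first column) before B.

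**Figure D5:**
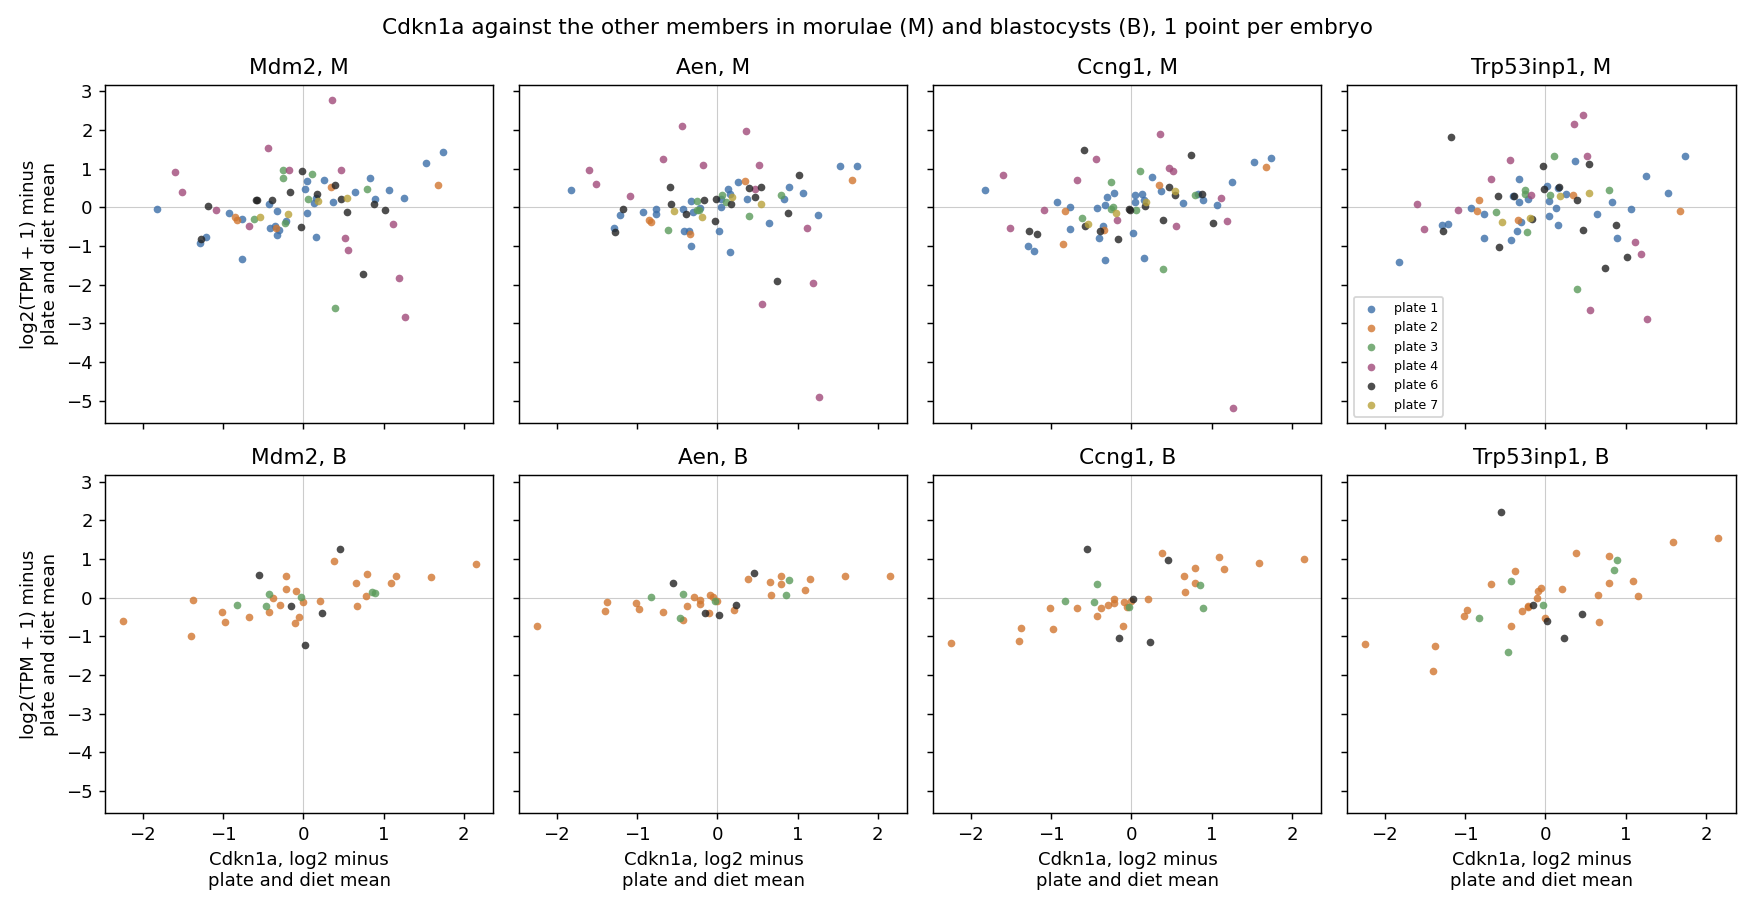
Cdkn1a (x axis) against each other member (y axis) in 73 morulae (top) and 36 blastocysts (bottom), both axes as log2(TPM + 1) minus the mean of plate and diet, with 1 point per embryo colored by plate. Blastocysts rise from lower left to upper right, with r from 0.581 to 0.715, while the morulae of plates 1 and 4 run in opposite directions. The morula at the bottom of the Aen and Ccng1 panels is the one with 3626 genes detected. It is on plate 4, as are morulae with 6600 and 6843 genes detected, and the direction of that plate is not given without them.

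The spread of each member within plate and diet was set beside that of all genes at the stage. At B the SD of log2(TPM + 1) was 0.93 for Cdkn1a and 0.93 for Trp53inp1, above 88.6% and 88.4% of 9378 genes, and 0.39 for Aen, above 19.7%. Without the plate 6 blastocysts it was 0.99 for Cdkn1a and 0.87 for Trp53inp1, above 90.7% and 85.6% of 9290 genes, and 0.38 for Aen, above 23.4%. At 2C Mdm2 (0.56) and Trp53inp1 (0.58) lay above 13.99% and 16.1% of 10314 genes, and Aen (1.25) above 81.2%. The median gene had an SD of 0.56 at B and 0.91 at 2C. Trp53inp1 was thus among the steadier genes at 2C and among the more variable ones at B, where its level was lowest.

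Over all 280 embryos the members did not share one course, with r between them from -0.346 (Aen and Trp53inp1) to 0.525 (Mdm2 and Trp53inp1). The genes whose levels followed each member most closely were ranked by r of log2(TPM + 1) over the 280 embryos among 11000 genes, a description in which stage accounts for much of the likeness. For Ccng1 they were Sdc4 (0.863), Ass1 (0.817) and Serpinb9b (0.810), and for Aen Wdr4 (0.854), Rangap1 (0.854) and Prkab1 (0.847), of which Prkab1 is also in the list of p53 targets. Mdm2 was most like Ctps (0.822), Rhot1 (0.808) and Rnf10 (0.807), and Trp53inp1 like Mob1b (0.722), Atp2a2 (0.722) and Kbtbd8 (0.715). Cdkn1a had the least close neighbors, Tomm6 (0.612), Trappc4 (0.602) and Efna1 (0.590).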

How the data were processed

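Single embryos were collected in lysis buffer and sequenced with a single-cell and Nextera kit, per the labels' protocols. The authors deposited 1 table of TPM values, and the submitters' processing notes name Bowtie and mm10, with versions and the quantification tool not given in the sources used here. TPM sums were 985115 to 998407 per embryo, no gene peaked under 5.87 TPM, and depth is unknown.

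Here log2(TPM + 1) was fitted with limma 3.58.1 (trend and robust) in R 4.3.3 with Benjamini-Hochberg adjustment over all genes that reached 1 TPM in at least 25% of the embryos of a stage. Stage steps (2C, 4C, M, B) were fitted per diet and diet per stage, with plate as covariate, and the interaction with plate within stage. 8C was compared within plate 3. LateB, on plate 7 with 4C embryos and morulae but no B embryo, was described by values. Relations used 100000 permutations, with 1e-05 the smallest possible p (Python 3.11.15, numpy 2.4.6). Fits were also run on simulated data, made by permuting residuals among embryos and changing some genes by known amounts. Such data do not keep shared sires or oocyte donors, and no result of that run is given here.

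Named genes were the 5 members, listed genes that passed a test, Trp53, Mdm4, Ppm1d, relatives of the members, and 3 genes of highest r per member among genes averaging 5 TPM or more in some group. The members and all lists were chosen with earlier results of these data known. Alternatives were quantile normalization, a pseudocount of 0.1, array weights, leaving out the filter or the plate covariate, embryos under 5000 genes left out, Rn45s left out, sire as a block, sire means, and plates or 8C embryos left out in turn. Added after the data were seen were the oocyte donor as a block in the diet fits (19 of 20 donors named in the file header gave embryos to both diets), leaving out the plate 6 blastocysts, leaving out 16 embryos with a suffixed sire identifier, the relations without embryos under 5000 genes, and the relations with Krt8.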

Additional observations from a re-analysis of the deposited data

Results flagged for a closer look

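In groups of 4 and 5 embryos (8C and LateB) the gap between the extreme embryo and its neighbor was compared with the range, for 10 sets of values, of which chance would mark about 1 in 20. It was large for 3 sets, all at 8C. The low protein embryo with 48.71 TPM of Mdm2 stood above the others (32.3 to 34.4 TPM). The control embryo with 67.36 TPM of Aen stood below the others (114 to 122 TPM), and the same embryo, at 3.94 TPM of Ccng1, stood below the others (18.5 to 21.1 TPM). It was also the lowest 8C embryo in Cdkn1a, at 27.5 TPM, and in Trp53, at 13 TPM.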

How the results depend on the processing

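No result changed sign while called. The number of members that rose or fell moved where a value lay near the fold threshold. From 2C to 4C in control embryos the count that fell went from 1 to 2 (Mdm2 added) with a pseudocount of 0.1, quantile normalization, sire as a block, or suffixed sires left out, and was 1 to 2 with plates left out in turn. From 4C to M it went from 1 to 0 (Mdm2) with quantile normalization, array weights or without embryos under 5000 genes, and was 0 to 1 over plates. From M to B 1 member in place of 0 rose in control embryos without the plate covariate (Ccng1, 1.03). In low protein embryos the count that fell from 2C to 4C was 2 with a pseudocount of 0.1 (Ccng1 added) and 1 to 2 over plates. From 4C to M it was 1 in place of 0 (Mdm2) with a pseudocount of 0.1, Rn45s left out, sire as a block, or suffixed sires left out, and 0 to 1 over plates. From M to B it was 1 to 4 over plates, and the count that rose from 4C to 8C was 0 to 1 with 8C embryos left out in turn. Causes were not tested. Among called genes quantile normalization moved the share that rose from 27.3% to 50.2% (4C to M) and 30.4% to 49.7% (M to B) in control embryos, from 32.6% to 50.1% and 20.8% to 50% in low protein embryos, and from 19.7% to 45% (4C to 8C), as the median change of all genes moved, for instance from -0.33 to -0.02 (4C to M, control). No member was called for diet or for diet by stage under any alternative run. Related pairs numbered 22, and 18 without subtraction of plate and diet means. Sire means could not be fitted at B, with 2 control sires. With the oocyte donor as a replicate block 0 members passed for diet at each stage and for diet by stage, and the genes that passed at M went from 0 to 2. TPM is relative and its depth unknown.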
